A study of Mus musculus with 6 samples.

Results

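The miRNAs described here come from the first stretch of the Dlk1-Dio3 imprinted domain on mouse chromosome 12, from miR-770 to miR-370. They were chosen by a rule on names that uses no measured value, set with earlier results of these data known: each row of the count files whose miRNA name belongs to miR-770, miR-673, miR-493, miR-337, miR-540, miR-665, miR-3070, miR-3071, miR-431, miR-433, miR-127, miR-434, miR-136, miR-341, miR-1188 or miR-370 was taken, which gave 33 of 1907 listed mature miRNAs. Small RNA libraries were made from primary dermal fibroblasts of newborn mice of a mixed background, 50% C57Bl/6 and 50% FVB/N, grown for 6 days and used at passage 1. The 3 caNrf2 libraries (genotype Col1a2Cre-caNrf2) came from mice with a constitutively active mutant of the transcription factor Nrf2, switched on by a Cre recombinase that the fibroblast promoter of Col1a2 drives. The 3 control libraries (genotype Col1a2Cre-wt, labelled ctrl) came from mice that carried the same Cre without the mutant, so the Cre is common to all 6. Nrf2 is a master regulator of antioxidant and detoxification genes, and its transgene leaves no trace in miRNA counts by which the labels could be checked.

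In the Dlk1-Dio3 domain the chromosomes inherited from father and mother are used differently. The paternal copy expresses protein-coding genes such as Dlk1 and Rtl1, and the maternal copy expresses long noncoding RNAs, among them Meg3 and Rian, together with small nucleolar RNAs and miRNAs. Several miRNAs of this stretch are read from the strand opposite to Rtl1, a gene derived from a retrotransposon and needed in the placenta. They match its transcript perfectly and are known to direct its cleavage. Each miRNA hairpin can give a mature miRNA from its 5′ arm (5p) and from its 3′ arm (3p), and bases 2 to 8 of a mature miRNA, the seed, are its main contact with target transcripts.

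All 33 names had a mature sequence in RefSeq (build GRCm38.p6, the same assembly as the mm10 build of the files), from 17 precursors that GENCODE M21 places at the same positions. The precursors span 54.6 kb, chr12:109563692-109618336, and all but Mir3071 lie on the plus strand. Mir770 lies in an exon of Meg3. Mir673, Mir493, Mir337, Mir540, Mir665, Mir3070a and Mir3070b lie between the annotated end of Meg3 and Rtl1, inside no other annotated gene. Mir431, Mir433, Mir127, Mir434 and Mir136 lie opposite an exon of Rtl1, and Mir341, Mir1188 and Mir370 lie in introns of Rian. These 4 segments are used below.

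The mature sequences of the 6 miRNAs that passed the test between the groups are given first, with the seed in capitals, because they show that the 6 have different seeds.
miR-337-5p: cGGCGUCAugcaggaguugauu
miR-540-3p: aGGUCAGAggucgauccugg
miR-665-3p: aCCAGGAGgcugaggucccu
miR-127-3p: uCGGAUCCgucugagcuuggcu
miR-434-5p: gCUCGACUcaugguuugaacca
miR-341-3p: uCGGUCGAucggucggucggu
Among all listed miRNAs with a RefSeq sequence, only miR-6915-5p has the seed of 1 of these 6, that of miR-540-3p. Within the stretch the only shared seed was GGUGCUA, of miR-3070-3p and miR-3070-2-3p.

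Reads per mature miRNA were counted by the submitters, and CPM is the count scaled to a common library size after TMM normalisation. An miRNA read covers the whole molecule, so no division by length is needed, although library chemistry can favour some sequences and levels of different miRNAs are therefore approximate. Library totals ranged from 10443268 to 28237159 counts, so 3 counts stood for 0.106 to 0.287 CPM. In the same libraries 6 fibroblast and mesenchymal miRNAs, such as miR-199a-5p and miR-143-3p, summed to 202060 to 208763 CPM in controls and 205454 to 233806 CPM in caNrf2 fibroblasts. Most of this sum was miR-21a-5p and miR-143-3p, at 109606 and 93421 CPM on average, while miR-199a-5p had 7077 CPM. Of these 6, miR-199a-5p and miR-199b-5p were called lower and 0 were called higher. Markers of muscle, blood and neural cells were far below this sum, and their own sums were higher in every caNrf2 library than in any control. The 5 muscle miRNAs summed to 344 to 421 CPM in controls and 558 to 737 CPM in caNrf2 libraries (4 of 5 called higher), the 7 blood cell miRNAs to 386 to 476 and 648 to 760 CPM (4 of 7 higher), and the 5 neural miRNAs to 161 to 175 and 226 to 233 CPM (3 of 5 higher). The 7 epithelial miRNAs summed to 1035 to 1865 and 1600 to 2121 CPM, ranges that overlapped, with 0 of 7 called. Most of that sum was miR-205-5p, at 1244 CPM on average. In the muscle, blood and neural lists 1 miRNA each was under 1 CPM on average, namely miR-1a-3p, miR-144-3p and miR-124-3p. The other miRNAs of these lists were at 1 CPM or more, so these low values do not show that such cells were absent. The part of other cells in the results below was not tested.

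Part of the stretch was lower in caNrf2 fibroblasts, led by miR-127-3p and miR-540-3p. Of its 33 miRNAs 26 had enough counts to be tested, and 6 of these fell while 0 rose (edgeR quasi-likelihood test, Benjamini-Hochberg adjusted p under 0.05 over 697 miRNAs). At an unadjusted p under 0.05, 10 were lower and 0 higher, where 16.9% of all tested miRNAs were lower and 21.1% higher. DESeq2 called 9 lower and 0 higher, and 13.8% of all miRNAs lower. By the edgeR calls over all tested miRNAs, 25.7% were called, 11.6% as lower and 14.1% as higher, beside 23.1% lower and 0% higher in the stretch. The median log2 fold change was -0.22 for the 26 and 0.03 for all tested miRNAs, and 20 of the 26 lay below 0, or 76.9% against 46.5%. Without control library 2, 3 of 27 tested miRNAs of the stretch fell, a share near the 11.1% of all tested miRNAs. Without control library 3 or caNrf2 library 3, 3 of 26 fell, beside 7.9% and 8.99% of all. miR-127-3p and miR-540-3p were among the 3 each time.

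**Figure D1:**
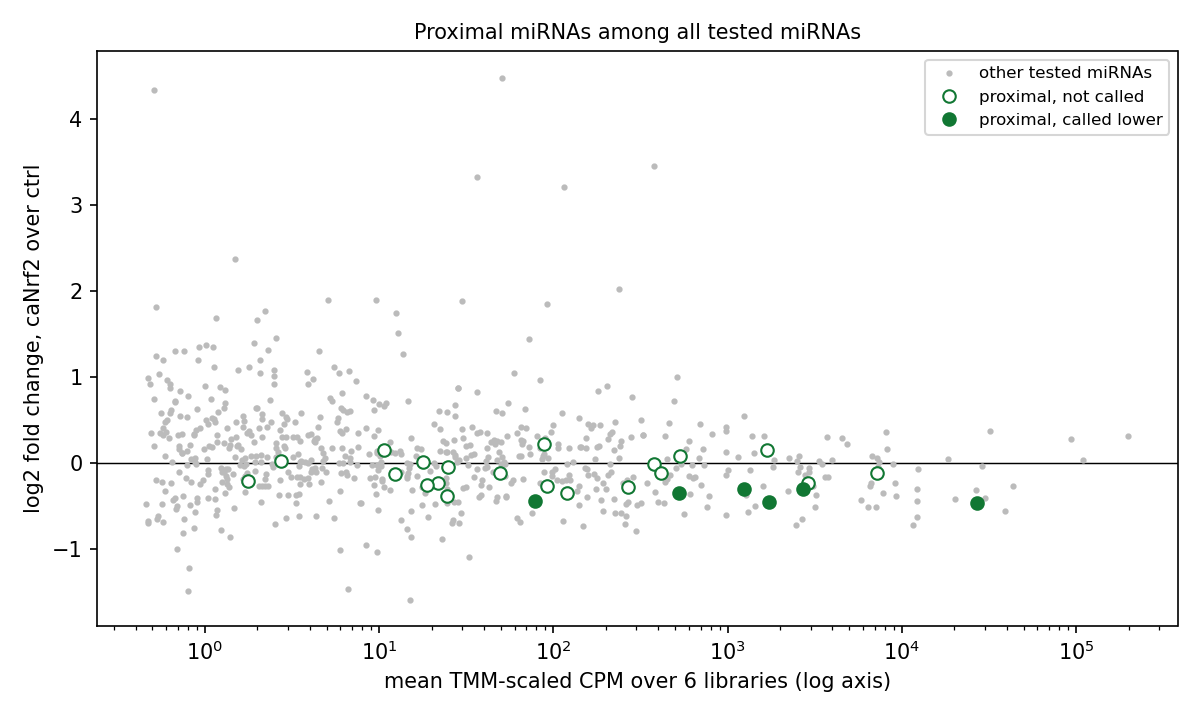
Mean TMM-scaled CPM over 6 libraries (log axis) against the log2 fold change of caNrf2 over ctrl for 697 tested miRNAs, with the 26 tested miRNAs of the stretch in green, filled where called lower. The green points lie between -0.46 and 0.23 and the 6 filled ones are all between -0.46 and -0.30.

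The size of the falls was modest. The called miRNAs were at 72.6% to 81.0% of the control level, and the log2 fold changes of the stretch lay between -0.46 and 0.23, while those of all tested miRNAs ran from -1.59 to 4.49. In 11 of the 26 the caNrf2 libraries all lay below the control libraries, or 42.3%, against 17.9% of all tested miRNAs. Among the 13 with a mean of at least 100 CPM, 5 fell, or 38.5%, where 25.3% of all 194 tested miRNAs at that level did. Of the 13 tested below 100 CPM 1 fell, miR-665-3p, or 7.69%, near the 6.36% of all tested miRNAs at that level. Abundant miRNAs lay lower in general. At 100 CPM or more 84.6% of the 13 were below 0, against 60.3% of the 194. There 53.8% had all caNrf2 libraries below the controls, against 34%. Below 100 CPM these shares were 69.2% and 30.8% in the stretch and 41.2% and 11.7% of all tested miRNAs.

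By abundance the stretch was dominated by miR-127-3p, a miRNA known to act on Rtl1 and on the transcriptional repressor Bcl6. It had 26342, 32635 and 34351 CPM in control libraries 1, 2 and 3 and 23271, 21914 and 22539 CPM in caNrf2 libraries 1, 2 and 3, and had rank 9 of all 1907 listed miRNAs by mean CPM. Every caNrf2 library was below every control, with control library 1 the nearest. miR-127-3p was at 72.6% of control, -0.46 ± 0.11 (SE) on the log2 scale (adjusted p = 0.0101 by edgeR), and remained called in 13 of 13 alternative analyses (adjusted p 5.16e-05 to 0.0448). Its rarer partner miR-127-5p had 263.2, 299.05 and 316.6 CPM in controls and 228.0, 241.99 and 257.3 CPM in caNrf2 libraries, again without overlap. The log2 fold change of miR-127-5p was -0.27 ± 0.09 (adjusted p = 0.0586 by edgeR), which missed the threshold. It passed with RLE size factors (adjusted p = 0.0419) and DESeq2 (0.0461) and without control library 1 (0.0271).

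The other precursors opposite Rtl1 did not follow miR-127-3p uniformly. miR-434-5p had 2614, 3299 and 3067 CPM in controls and 2373, 2417 and 2487 CPM in caNrf2 libraries. The groups were separate but close, as control library 1 lay just above the caNrf2 libraries. miR-434-5p had a log2 fold change of -0.30 ± 0.09 (adjusted p = 0.0336 by edgeR). That call was lost without any 1 library other than control library 1 (adjusted p 0.0667 to 0.106) and among miRNAs of at least 10 CPM (0.0583). The more abundant arm miR-434-3p had 6564, 8295 and 7690 CPM in controls and 7381, 6377 and 7035 CPM in caNrf2 libraries. These ranges overlapped, and the log2 fold change was -0.12 ± 0.10 (adjusted p = 0.433 by edgeR).

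miR-136-3p had 2899, 3187 and 3347 CPM in controls and 2402, 2881 and 2745 CPM in caNrf2 libraries. The groups came close without overlapping, and the difference of -0.23 ± 0.09 on the log2 scale did not pass (adjusted p = 0.0883 by edgeR). miR-136-5p ran from 478.6 to 587.8 CPM in controls and from 487.4 to 593.3 CPM in caNrf2 libraries, with a log2 fold change of 0.08 ± 0.10 (adjusted p = 0.602 by edgeR). miR-431-5p, studied in muscle progenitor cells, had 1425, 1672 and 1690 CPM in controls and 1949, 1663 and 1690 CPM in caNrf2 libraries. Its highest library was caNrf2 library 1 and its lowest control library 1, with the other 4 close together. The difference was 0.15 ± 0.09 on the log2 scale for miR-431-5p (adjusted p = 0.279 by edgeR) and 0.23 ± 0.14 for miR-431-3p (0.258), the highest value of the stretch. miR-433-3p had 388, 395 and 356 CPM in controls and 452, 324 and 355 CPM in caNrf2 libraries, and the log2 fold change was -0.01 ± 0.12 (adjusted p = 0.959 by edgeR). Its highest and its lowest value were both in caNrf2 libraries, and the sign changed with the scaling. miR-433-5p, at 25.4 ± 1.74 and 24.5 ± 1.39 CPM, differed by -0.05 ± 0.13 (adjusted p = 0.827 by edgeR). In this segment 2 of 10 tested miRNAs fell, beside 11.6% of all tested miRNAs, and the median difference of the 10 was -0.08 on the log2 scale, against 0.03 for all.

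**Figure D2:**
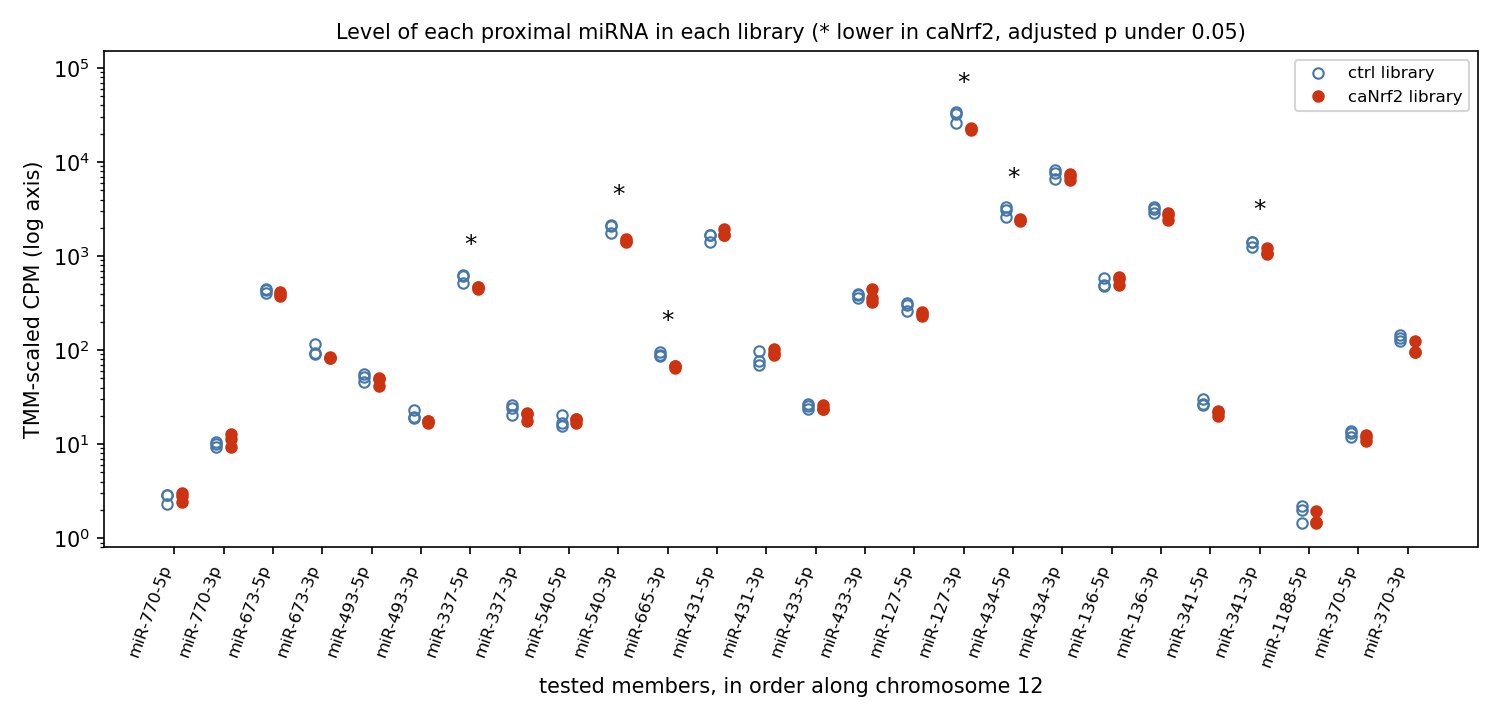
TMM-scaled CPM (log axis) of the 26 tested miRNAs in the order of their position, with open blue points for the 3 ctrl libraries, filled red points for the 3 caNrf2 libraries and a star over the 6 called lower. Levels run from 1.45 to 34351 CPM, and the arms of a hairpin differ far more from each other than the groups do.

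Between Meg3 and Rtl1, 3 of 9 tested miRNAs fell (11.6% of all tested miRNAs did), and they came from 3 neighbouring hairpins. miR-540-3p, the most abundant of them, had 1777, 2136 and 2101 CPM in controls and 1526, 1416 and 1444 CPM in caNrf2 libraries. The lowest control stood above the highest caNrf2 library. The difference for miR-540-3p was -0.46 ± 0.09 on the log2 scale (adjusted p = 0.00362 by edgeR), the smallest adjusted p of the stretch, and the call remained in 13 of 13 alternatives. miR-337-5p had 520, 611 and 630 CPM in controls and 472, 444 and 471 CPM in caNrf2 libraries, without overlap. Its log2 fold change of -0.34 ± 0.09 (adjusted p = 0.0155 by edgeR) lost its call when caNrf2 library 2 (0.0532) or control library 2 (0.0508) or 3 (0.0774) was left out. miR-665-3p had 86.5, 96.5 and 88.9 CPM in controls and 68.2, 68.1 and 64.5 CPM in caNrf2 libraries. The caNrf2 libraries lay close together and well below the controls. miR-665-3p was at 73.8% of control, -0.44 ± 0.11 on the log2 scale (adjusted p = 0.0124 by edgeR), and the call was lost without caNrf2 library 3 (0.0632).

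The partner arms of these miRNAs were scarce. miR-540-5p had 17.7 ± 2.46 CPM in controls and 17.9 ± 1.11 CPM in caNrf2 libraries (mean ± SD, n = 3), with a log2 fold change of 0.01 ± 0.15 (adjusted p = 0.961 by edgeR) whose sign changed with the scaling. miR-337-3p had 23.5 ± 2.91 and 20.1 ± 1.95 CPM, with a log2 fold change of -0.23 ± 0.15 (adjusted p = 0.292 by edgeR). miR-665-5p had 33 counts over all 6 libraries and was not tested. Upstream of these hairpins, miR-673-5p had 430.6 ± 21.4 CPM in controls and 399.0 ± 19.8 CPM in caNrf2 libraries (log2 fold change -0.11 ± 0.08, adjusted p = 0.330 by edgeR). miR-673-3p held 83.3 to 83.8 CPM in the 3 caNrf2 libraries and 90.8 to 116 CPM in controls (-0.26 ± 0.12, adjusted p = 0.142 by edgeR). The miR-493 arms had log2 fold changes of -0.12 and -0.25 and did not pass either. At the Meg3 end, miR-770-3p had 10.1 ± 0.61 and 11.2 ± 1.67 CPM and miR-770-5p had 2.69 ± 0.32 and 2.74 ± 0.29 CPM. Neither passed the test.

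In the Rian segment 1 of 5 tested miRNAs fell, beside 11.6% of all tested miRNAs. This was miR-341-3p. It had 1263, 1424 and 1429 CPM in controls and 1048, 1209 and 1072 CPM in caNrf2 libraries, all of them below the controls. The log2 fold change was -0.31 ± 0.09 (adjusted p = 0.0224 by edgeR). The miR-341-3p call was lost by leaving out caNrf2 library 1 (adjusted p = 0.0634) or 3 (0.106) or control library 2 (0.0645) or 3 (0.0922). Its partner miR-341-5p had 26.1, 30.4 and 26.6 CPM in controls and 22.3, 21.9 and 19.8 CPM in caNrf2 libraries, also without overlap. With a log2 fold change of -0.38 ± 0.14 miR-341-5p missed the threshold (adjusted p = 0.0691 by edgeR) and passed it with RLE size factors (0.0494) and DESeq2 (0.0163).

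miR-370-3p, at the far end of the stretch, had 146.0, 124.2 and 133.05 CPM in controls and 124.8, 96.73 and 95.75 CPM in caNrf2 libraries. Here caNrf2 library 1 lay within the control range and the other caNrf2 libraries below it. The difference was -0.35 ± 0.13 on the log2 scale (adjusted p = 0.0730 by edgeR). It was called lower without caNrf2 library 1 (-0.49, adjusted p = 0.0159), with RLE size factors (0.0420) and with DESeq2 (0.0197). miR-370-5p, at 12.9 ± 0.95 and 11.8 ± 0.98 CPM, had a log2 fold change of -0.13 ± 0.15 (adjusted p = 0.556 by edgeR). All 5 tested miRNAs of this segment were below 0, miR-1188-5p among them at 1.88 ± 0.39 and 1.64 ± 0.28 CPM. Of all tested miRNAs 46.5% were below 0.

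**Figure D3:**
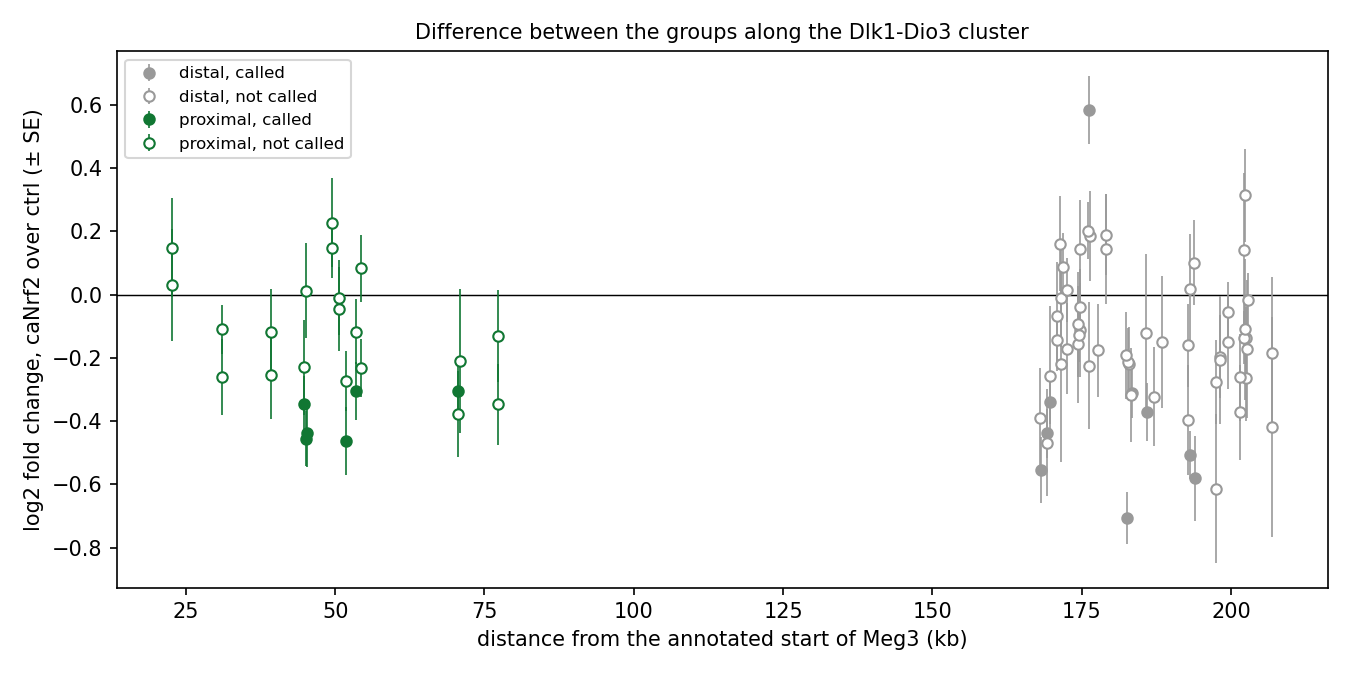
Log2 fold change of caNrf2 over ctrl (± SE) against the distance from the annotated start of Meg3 in kb, for tested miRNAs of the stretch (green) and of the distal stretch from miR-379 to miR-3072 (grey), filled where called. Tested distal miRNAs without an assigned position are not drawn, among them miR-376c-3p, which was called lower (log2 fold change -0.40). The values of the stretch rise and fall between neighbours, with miR-770 and miR-431 above 0 and miR-540-3p and miR-127-3p lowest.

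Counted together, the stretch held 4.53%, 5.55% and 5.56% of the counts of control libraries 1, 2 and 3 and 4.42%, 4.02% and 4.11% of those of caNrf2 libraries 1, 2 and 3. Control library 1 came close to the caNrf2 libraries. The means were 5.21% ± 0.59 and 4.18% ± 0.21 (SD, n = 3), and with miR-127-3p left out 2.13% ± 0.20 and 1.91% ± 0.08. Without it the groups overlapped. Control library 1 was the lowest control for 16 of the 26 miRNAs, or 61.5%, against 35.9% of all tested miRNAs. Leaving it out gave 7 called falls of 27 tested in place of 6 of 26, where 10.2% of all tested miRNAs fell. Bulk counts do not tell fewer cells with these miRNAs from lower levels per cell.

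The share of miR-127-3p, the most abundant tested miRNA of the stretch and the one with the lowest log2 fold change there, is given as a description without a test. It made up 57.8%, 58.8% and 60.7% of the stretch's counts in control libraries 1, 2 and 3 and 54.7%, 54.3% and 54.2% in caNrf2 libraries 1, 2 and 3. This ratio does not depend on the scaling of libraries. Of the counts of the whole domain, proximal and distal, the stretch held 56.4% ± 2.45 in controls and 55.7% ± 0.35 in caNrf2 libraries. Of the 65 tested miRNAs of the distal stretch 9 fell and 1 rose, or 13.8% lower beside 11.6% of all tested miRNAs. The median log2 fold change there was -0.17, 78.5% of the values were below 0 and 24.6% had caNrf2 libraries all below the controls. Whether the stretches differ was not tested.

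The arms of 12 hairpins were abundant enough to be compared within each library, which needs no scaling. The 5p arm was the more frequent in miR-673, miR-493, miR-337 and miR-431 and the 3p arm in the other 8, in every library. The groups were separate for 3 of the 12, miR-540, miR-434 and miR-136, where 30 of all 184 hairpins with both named arms at 1 CPM or more, or 16.3%, had separate groups. A two-sided exact permutation test of 3 against 3 libraries cannot give less than p = 0.1, and these 3 had that value (0.343 adjusted over the 12 hairpins), so none could pass. Their hairpins are printed with the mature arms in capitals, 5p first, to show which stretches are compared.
Mir540: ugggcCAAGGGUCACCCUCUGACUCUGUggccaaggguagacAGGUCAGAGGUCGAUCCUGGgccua
Mir434: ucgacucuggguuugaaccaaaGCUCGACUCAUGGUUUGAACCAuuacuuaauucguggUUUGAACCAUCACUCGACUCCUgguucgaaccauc
Mir136: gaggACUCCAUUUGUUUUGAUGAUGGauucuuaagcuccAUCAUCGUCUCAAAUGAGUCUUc
They lie at chr12:109586080-109586146, chr12:109594506-109594599 and chr12:109595327-109595388, all on the plus strand.

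For miR-540 the log2 ratio of 5p to 3p counts was -6.81, -6.98 and -6.68 in controls and -6.52, -6.24 and -6.30 in caNrf2 libraries. The 3p arm thus outnumbered the 5p arm 113-fold in controls and 81.7-fold in caNrf2 fibroblasts, a difference of 0.47 on the log2 scale with a pooled SD of 0.15. For miR-136 the log2 ratio was -2.56, -2.74 and -2.51 in controls and -2.30, -2.28 and -2.27 in caNrf2 libraries. The excess of its 3p arm was 6.07-fold and 4.87-fold, and the caNrf2 libraries lay closer together than the controls. For miR-434 the difference had the other sign, from -1.33 in each control to -1.64, -1.40 and -1.50 in caNrf2 libraries. Its 3p arm was 2.51-fold and 2.85-fold more frequent. The differences in the other 9 hairpins ran from -0.12 (miR-770) to 0.22 (miR-370), with overlapping groups, and that of miR-127 was 0.18 (exact permutation p = 0.2).

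**Figure D4:**
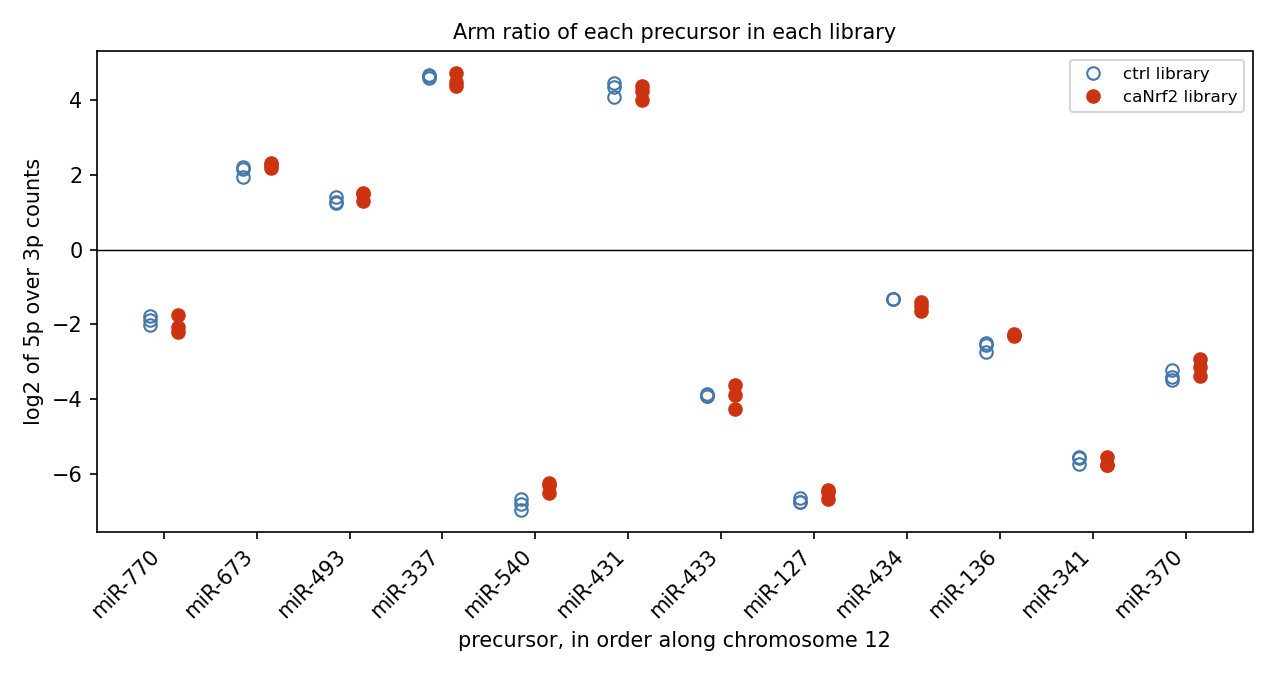
Log2 of 5p over 3p counts (pseudocount 0.5) for 12 hairpins in the order of their position, with open blue points for the 3 ctrl and filled red points for the 3 caNrf2 libraries. The groups are separate for miR-540, miR-434 and miR-136 and overlap for the other 9.

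The remaining 7 miRNAs of the stretch were too rare to test, with 0 to 52 counts over all 6 libraries. Mir3071 lies on the opposite strand of Mir136, whose 62 bases it covers completely, so that miR-3071-3p overlaps miR-136-5p by 20 bases and miR-3071-5p overlaps miR-136-3p by 19. Both miR-3071 arms had 0 counts in all libraries, which allows up to 0.0264 CPM (3 of 113619808 counts, counting error only). Mir337 likewise has a partner on the minus strand, Mir3544, whose arms had 8 and 19 counts in all libraries together. Whether the counting used strand is not given in the sources used here, so reads of these pairs cannot be told apart with certainty. miR-3070-5p is identical in Mir3070a and Mir3070b, and it and the 2 miR-3070 3p species had 6 to 16 counts each.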

How the data were processed

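Small RNA of 3 caNrf2 and 3 ctrl fibroblast cultures, each from a different mouse per the series design, was sequenced, and the file headers give all 6 libraries the same run and lane. The deposited values are raw read counts per mature miRNA. Per the submitters' processing notes, the tools included Bowtie, featureCounts, cutadapt, CASAVA 1.8 and edgeR, and the build was mm10. Settings for strand and for reads that match several places were not given in the sources used here, and reads of near-identical miRNAs may have been split or dropped. No molecular identifiers are named, so limits from counts cover counting error only.

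From these counts, differences between the groups were tested by edgeR 4.0.16 (R 4.3.3) with TMM scaling, filterByExpr at a minimum count of 10, glmQLFit and glmQLFTest and no covariate, with Benjamini-Hochberg adjustment over 697 miRNAs and a threshold of 0.05. SEs were derived from the F statistic. Library totals were 10443268 to 28237159. Arm ratios used a pseudocount of 0.5 and two-sided exact permutation over 20 assignments. Positions are from GENCODE M21 and sequences from RefSeq GRCm38.p6, both of the mm10 assembly. Named were all miRNAs of at least 100 CPM, all called ones and their partner arms. miR-1188-5p, the miR-493, miR-770 and miR-3070 species, the miR-3071 arms and Mir3544 were named beyond that rule after their values were seen. Alternatives were DESeq2 1.42.0, a replicate block, each library left out, a filter at 10 CPM or none, RLE factors, library totals, and totals without the 5 most abundant miRNAs. The miRNAs, segments and tests were chosen with earlier results of these data known.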

Additional observations from a re-analysis of the deposited data

How the results depend on the processing

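The 26 tested miRNAs kept the direction of their log2 fold change in all alternatives run, except miR-433-3p, miR-540-5p and miR-770-5p, all near 0. miR-433-3p had 0.016 with library totals only, 0.011 with a filter at 10 CPM and -0.168 to 0.067 without 1 library. miR-540-5p had -0.026 with RLE size factors, -0.0041 without the 5 most abundant miRNAs, -0.028 with DESeq2 and -0.070 to 0.132 without 1 library. miR-770-5p had -0.0082 with RLE size factors, -0.0083 with DESeq2 and -0.081 to 0.108 without 1 library. The number of called falls was 5 to 9 with all libraries, where 6.34% to 19.1% of all tested miRNAs fell. It was 3 to 7 without 1 library, where 7.9% to 11.1% of all did. With the filter at 10 CPM 5 of 24 fell, a share near the 19.1% of all. No rise was called in any of the 13 alternatives. With the filter at 10 CPM 60 of all tested miRNAs were called higher in place of 98, with fewer miRNAs tested. The log2 ratio of the stretch's mean shares, -0.32, was -0.18 with the 5 most abundant miRNAs out of the totals and -0.16 without miR-127-3p. The deviations of same-numbered libraries from their group means had correlations of 0.36, 0.41 and -0.42 over 371 miRNAs. Not every library correlated best with its own number. Whether the numbers pair the libraries was not tested. With a replicate block 9 falls were called in place of 6, adding miR-127-5p, miR-136-3p and miR-370-3p. In that setting 12.5% of all tested miRNAs fell. The 7 miRNAs below the count filter had 0 to 52 counts over all libraries, and with no filter 5 of them were tested and none was called. With 3 libraries per group, the calls of miR-337-5p, miR-341-3p, miR-434-5p and miR-665-3p were lost when certain libraries were left out, as given with their values.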
